A study of Mus musculus with 45 samples.

Results

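A set of 10 neuropeptide genes was followed through the cortex, hippocampus and striatum of Shank3-mutant mice: Trh, Crh, Cck, Npy, Vip, Sst, Cort, Tac2, Nts and Adcyap1. They were 10 of the 18135 genes in the table. Trh was chosen by measured values, because it was higher in Shank3-HM than in WT hippocampus with a wide spread, so that comparison is given as a description with no test. The other 9 genes accompany it as named peptide precursors. RNA-seq was made from 13-week-old male C57BL/6J mice that were wild-type (WT), heterozygous (Shank3-HT) or homozygous (Shank3-HM, labelled knock-out) for a germline deletion of exons 14 to 16 of Shank3, which encodes an excitatory postsynaptic scaffold. Each of the 9 groups of prefrontal cortex (cortex hereafter), hippocampus and striatum held 5 samples, and the labels do not say which samples of different regions came from 1 mouse. All mice were of this 1 line and carried no other listed allele or treatment.

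Neuropeptides are cut from larger precursor proteins, stored in dense-core vesicles and released to act on G-protein-coupled receptors, often over a wider distance and a longer time than glutamate or GABA. In the forebrain most of these precursors mark classes of GABAergic interneuron, although Cck, Adcyap1 and Nts are also made by excitatory neurons of some areas. Trh encodes thyrotropin-releasing hormone, best known as the hypothalamic peptide that drives the thyroid axis and also made in scattered forebrain neurons.

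Values are the authors' DESeq2-normalized counts, and their depth is unknown. The total normalized count ran from 26118607 to 29568983 per sample. Shank3 itself, which keeps its undeleted exons in a gene-level count, was at 70.8% to 76.7% of the WT mean in Shank3-HT and at 46.6% to 50.6% in Shank3-HM samples over the 3 regions, with no overlap between genotypes within a region. The labelled regions had their markers: the summed 20 striatal spiny projection neuron genes were at 366957 to 481045 in striatum and at 26726 to 32077 in 14 of 15 cortical samples. The remaining one, cortex Shank3-HM replicate 2, was at 114684, and its 20 excitatory neuron genes summed to 173288 against 247198 to 280432 in the other 14. The larger Shank3-HM cortical differences are given with and without this sample. The 16 choroid plexus genes ran from 6205 to 191750 among the hippocampal samples, and reached 112260 in striatum Shank3-HT replicate 5 against 4995 to 8867 in the other 14 striatal samples. In bulk tissue, fewer cells that make a peptide and less peptide RNA per cell cannot be told apart.

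The 250 bases before the RefSeq start of Trh, which was chosen for its rise and spread in Shank3-HM hippocampus, and of Sst, whose level varied little between regions and genotypes, are shown for comparison, 5′ to 3′ on the coding strand. Trh (ENSMUSG00000005892) spans chr6:92242061-92244650 and Sst (ENSMUSG00000004366) chr16:23889573-23890958 in the GENCODE annotation. The windows are RefSeq sequences of build GRCm38.p6 on the minus strand, at chr6:92244651-92244900 for Trh and at chr16:23890845-23891094 for Sst. Capitals mark an 8-base match to TGACGTCA, the full cAMP response element, or to TGACCTCA, a variant that differs at 1 base.

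Trh: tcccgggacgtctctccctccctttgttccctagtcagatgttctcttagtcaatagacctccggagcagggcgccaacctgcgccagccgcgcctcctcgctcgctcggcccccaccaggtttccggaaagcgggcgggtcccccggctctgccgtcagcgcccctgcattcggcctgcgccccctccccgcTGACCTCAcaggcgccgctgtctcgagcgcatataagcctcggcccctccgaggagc
Sst: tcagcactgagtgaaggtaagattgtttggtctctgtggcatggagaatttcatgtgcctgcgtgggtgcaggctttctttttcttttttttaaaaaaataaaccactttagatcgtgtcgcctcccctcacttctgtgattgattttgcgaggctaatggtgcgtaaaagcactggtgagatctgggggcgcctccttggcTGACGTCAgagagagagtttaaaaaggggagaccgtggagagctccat

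The Sst match began 48 bases before the start and the Trh match 57 bases before it. On either strand, TGACGTCA was present in 1.55% and TGACCTCA in 1.94% of the 32851 RefSeq promoter windows of this length. These matches describe the letters of the windows only.

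WT mice were compared first, to show where each peptide gene is expressed before any mutation. Levels of different genes are compared as normalized counts per kb of exon. Sst, which marks dendrite-targeting interneurons, had the highest level in all 3 regions, at 5312 ± 395 per kb in cortex, 5186 ± 558 in hippocampus and 4622 ± 399 in striatum (SD, n = 5 each). Cck, the cholecystokinin precursor, followed in cortex at 4778 ± 495 and in hippocampus at 3258 ± 439, whereas Npy came second in striatum at 2023 ± 122. The cortical ranges of Sst and Cck overlapped, as did those of Cck and Npy, so their order there is not separated by the spread. Below the leading 3 genes, the next level in cortex was Vip at 317 ± 32.0 per kb, with no overlap with the range of Npy.

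Trh and Nts stood at the bottom of the cortical order, at 8.18 ± 4.21 and 2.24 ± 1.29 per kb, and their ranges overlapped. In hippocampus Trh was the lowest of the 10 at 3.12 ± 1.20 per kb, below the whole range of Crh. In striatum Trh ranked 5 of 10 at 63.5 ± 8.40 per kb, within the range of Nts at 82.5 ± 42.5 and above that of Tac2. Adcyap1, the precursor of the peptide PACAP, was the lowest there at 2.79 ± 2.32 per kb, with a range that overlapped that of Vip.

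**Figure D1:**
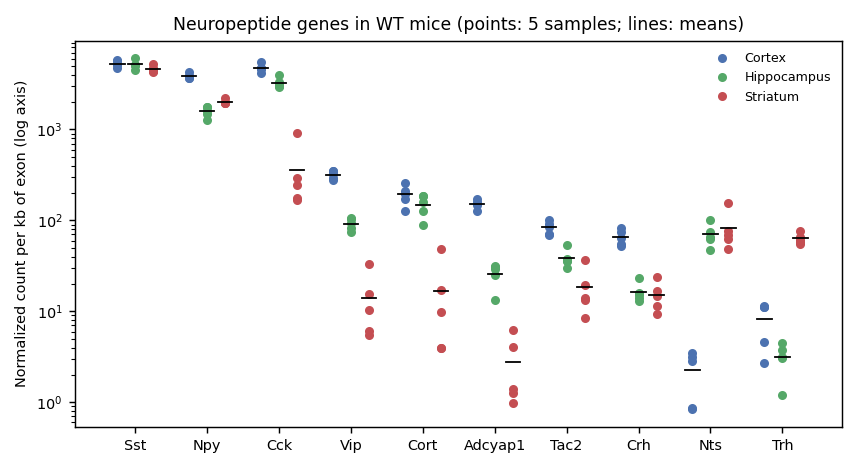
Normalized counts per kb of exon (log axis) of the 10 neuropeptide genes in WT mice; points are the 5 samples of a region and lines their means. Sst stays between 4292.5 and 6069.9 per kb in every region, Trh and Nts are higher in striatum than in cortex, and Cck, Vip, Cort and Adcyap1 are lower and more spread in striatum.

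Between WT regions, the striatum and the cortex differed in all 10 genes (limma on log2(value + 1), Benjamini-Hochberg adjusted over all genes, threshold 0.05). Of all genes tested, 59.3% were called in this comparison, so that calling a gene is common here and the sizes say more than the count. In striatum, 2 genes were higher, Trh by 3.01 ± 0.38 on the log2 scale (SE, limma adjusted p = 5.6e-09) and Nts by 4.78 ± 0.57 (adjusted p = 1.4e-09). This fit takes its spread from all 9 groups, the hippocampal values that chose Trh included. In a fit without the hippocampal samples, chosen after seeing the data, the adjusted p of Trh was 1.7e-09 (limma). The other 8 were lower, from Adcyap1 at -5.96 ± 0.39 (adjusted p = 3.9e-17), Vip at -4.77 ± 0.40, Cck at -4.05 ± 0.40 and Cort at -3.92 ± 0.42 to Tac2 at -2.29 ± 0.40, Crh at -2.11 ± 0.28 and Npy at -0.94 ± 0.10. Sst was the smallest, at -0.20 ± 0.08 (limma adjusted p = 0.031). Its call was lost, at adjusted p of 0.068 to 0.086, without any 1 of striatum replicates 1, 3 and 4 or cortex replicates 2 and 5, and at 0.054 after quantile normalization (limma).

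The hippocampus and the cortex differed in 6 of the 9 genes other than Trh, beside 46.6% of all genes. Nts, the neurotensin precursor, was the 1 gene higher in hippocampus, by 4.62 ± 0.57 (limma adjusted p = 5.9e-09), with 58.8 to 127 normalized counts in the 5 WT hippocampi against 1.05 to 4.37 in the 5 cortices. A further 5 were lower: Adcyap1 at -2.60 ± 0.39, Crh at -1.97 ± 0.28, Vip at -1.79 ± 0.40, Npy at -1.30 ± 0.10 and Tac2 at -1.11 ± 0.40. Cort at -0.38 ± 0.42, Sst at -0.04 ± 0.08 and Cck at -0.56 ± 0.40 were not called. All 5 hippocampal values of Cck, 3785 to 5208, nevertheless lay below all 5 cortical ones, 5436 to 7238. The fit takes its spread from all 9 groups, and the striatal spread of Cck was large. In a fit of only these WT samples, chosen after seeing the data, Cck was called at the same size (limma adjusted p = 0.00020).

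Between striatum and hippocampus, 6 of the 9 genes other than Trh were called, beside 56.1% of all genes. Npy, whose striatal values of 1100.4 to 1264 all exceeded the hippocampal ones of 718 to 1011, was higher in striatum by 0.37 ± 0.10 (limma adjusted p = 0.0028). Cort at -3.54 ± 0.42, Cck at -3.49 ± 0.40, Adcyap1 at -3.36 ± 0.39, Vip at -2.98 ± 0.40 and Tac2 at -1.18 ± 0.40 were lower in striatum. Nts at 0.15 ± 0.57, Crh at -0.14 ± 0.28 and Sst at -0.16 ± 0.08 were not called. Sst passed in this comparison without striatum replicate 5 or hippocampus replicate 4 and after quantile normalization (limma adjusted p = 0.032, 0.031 and 0.020), at differences of -0.21 to -0.22. The sign of Nts turned (-0.10) without striatum WT replicate 5. The WT hippocampal samples of Trh entered its choice, so its values there are a description: the mean difference on the log2 scale was -1.11 against cortex and 4.12 for striatum against hippocampus.

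Trh was then followed through the genotypes. In WT hippocampus the 5 samples held 6.15, 1.66, 4.36, 5.14 and 4.29 normalized counts of Trh, and in Shank3-HM hippocampus they held 16.8, 77.1, 40.0, 12.2 and 22.3. The groups did not overlap, and the Shank3-HM values ran over a wide range, with replicate 2 highest and replicate 4 lowest. These are the values by which Trh was picked, so their separation is part of the choice. The means were 4.32 ± 1.66 and 33.7 ± 26.5 (SD, n = 5 each), and the log2 difference was 2.47 ± 0.47 (SE), at which no test is given. Under other settings, or with 1 sample left out, it was 2.10 to 2.75, a range that only describes the values that chose Trh. In Shank3-HT hippocampus Trh was at 12.7, 9.81, 10.3, 3.84 and 3.69. Of these samples, 3 lay above all WT samples, and the 2 lowest lay inside the WT range. The Shank3-HT log2 difference of 0.70 ± 0.47 uses the same WT samples, so it too is a description.

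In cortex, whose samples had no part in the choice, Trh was at 6.31, 15.4, 15.8, 3.73 and 15.4 in WT samples. The Shank3-HM samples held 17.3, 51.2, 30.7, 15.5 and 20.9 normalized counts. Of the 5, 4 were above every WT value, and the other, replicate 4, lay just inside the WT range. The difference was 1.23 ± 0.42 on the log2 scale (SE) but did not pass over all genes (limma adjusted p = 0.88). Replicate 2, the sample with striatal markers, was the highest, and without it the difference was 0.97 (limma adjusted p = 0.94). WT striatum held 77.1 to 106 counts of Trh, and the part of that tissue in the value of replicate 2 was not tested. The Shank3-HT cortices held 7.18, 7.09, 16.5, 13.8 and 7.46, overlapping the WT range, with a difference of -0.02 ± 0.42 (limma adjusted p = 1.0).

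Striatal Trh was mostly higher than that of the other regions and varied less within groups. WT samples were at 84.3, 106, 77.1, 79.9 and 91.7, Shank3-HT samples at 89.1, 96.4, 84.7, 125 and 99.1, and Shank3-HM samples at 124, 70.8, 96.3, 99.8 and 85.1. The 3 genotypes overlapped throughout. Its coefficient of variation was 13.2% to 20.7% within striatal groups, against 38.5% to 78.6% in hippocampus and 42.5% to 54.1% in cortex, where counts were also lower. The genotype differences were 0.17 ± 0.15 for Shank3-HT and 0.10 ± 0.15 for Shank3-HM (limma adjusted p = 0.86 and 0.95).

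**Figure D2:**
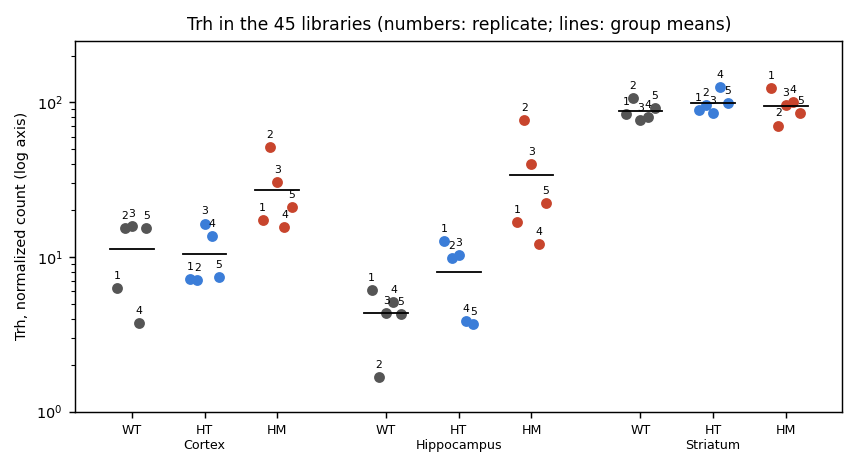
Normalized counts of Trh (log axis) in the 45 samples by region and genotype; numbers beside points are replicate numbers and lines are group means. The Shank3-HM hippocampi at 12.2 to 77.1 and the WT hippocampi at 1.66 to 6.15 hold the values that chose Trh. The striatal genotypes overlap at 70.8 to 125.

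Ordered by mean, Trh was highest in striatum (Shank3-HT 98.9, Shank3-HM 95.2, WT 87.8), then in Shank3-HM hippocampus (33.7) and Shank3-HM cortex (27.1), and lowest in WT cortex (11.3), Shank3-HT cortex (10.4), Shank3-HT hippocampus (8.06) and WT hippocampus (4.32). Only the neighbours WT striatum and Shank3-HM hippocampus had ranges that did not overlap, and these nearly met at 77.1. Every other pair of neighbours overlapped. The Shank3-HM effect on Trh in striatum minus that in cortex was -1.13 ± 0.54 on the log2 scale, which did not pass over all genes (limma adjusted p = 0.91, and 0.88 in a fit without the hippocampal samples), and -0.87 without cortex replicate 2. For Nts it was -1.81 ± 0.81 (limma adjusted p = 0.87), and -0.76 without that sample. None of the 10 genes was called for this difference between effects, beside 0.0539% of all genes, and 2 of the 10, Trh and Nts, had an unadjusted p under 0.05 (limma) beside 5.42% of all genes.

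Among Shank3-HM samples, the replicate numbers ran 2, 3, 5, 1 and 4 from highest to lowest Trh in both cortex and hippocampus. In striatum their order was 1, 4, 3, 5 and 2. WT samples ran 3, 2, 5, 1 and 4 in cortex and 1, 4, 3, 5 and 2 in hippocampus. Shank3-HT samples ran 3, 4, 5, 1 and 2 in cortex and 1, 3, 2, 4 and 5 in hippocampus. Between cortex and hippocampus, the Spearman correlation of Trh was 1 in Shank3-HM, -0.6 in WT and -0.1 in Shank3-HT samples. All other pairs of regions within a genotype had -0.8 to 0. Across genes, deviations of same-numbered Shank3-HM cortex and hippocampus samples correlated by 0.21 for replicate 1 and -0.092 to 0.018 otherwise. Since the labels do not tie replicate numbers to mice, a shared order between regions is a description of the numbers.

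The genes whose hippocampal pattern was most like that of Trh were found by Pearson correlation of log2 values over the 15 hippocampal samples, among 16570 other genes. The 5 highest were Sde2 (0.90), Txlnb (0.89), Emilin2 (0.86), Lrrc8c (0.79) and 2900005J15Rik (0.79). All points share libraries and genotype groups, and as the top of a long ranking these values are high by construction. Within genotypes, the same 5 ran from 0.35 to 0.81. Over the 15 cortical samples the correlation with Trh was negative for Sde2 (-0.18), Txlnb (-0.36) and Lrrc8c (-0.41) and positive for Emilin2 (0.28) and 2900005J15Rik (0.63). Over the 15 striatal samples it was -0.10, -0.39 and -0.49 for the first 3, -0.64 for Emilin2 and 0.29 for 2900005J15Rik.

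The other peptide genes were compared between genotypes region by region. None of the members was called at limma adjusted p under 0.05 in any of the 5 genotype comparisons tested, which held the 9 other than Nts in cortex, the 9 other than Trh in hippocampus and all 10 in striatum. Nts is described without a test in cortex, where it passed the minimum mean of 10 only through its Shank3-HM values. The background was as thin: of all genes, 0% were called for Shank3-HT and 0.0121% for Shank3-HM in cortex, 0.00603% for Shank3-HT in hippocampus, and 0.00607% for Shank3-HT and 0.182% for Shank3-HM in striatum. In the Shank3-HM hippocampus it was also 0.00603%. At an unadjusted p under 0.05 (limma), 1 of 9 members stood out in Shank3-HT cortex beside 2.68% of all genes, 1 of 9 in Shank3-HM cortex beside 5.49%, 1 of 9 in Shank3-HT hippocampus beside 5.26%, 1 of 10 in Shank3-HT striatum beside 7.43%, and 1 of 10 in Shank3-HM striatum beside 7.43%. These are named next, together with members whose log2 difference reached 0.3. The other members ran from -0.18 to 0.05 (7 genes) in Shank3-HT cortex, from -0.23 to 0.06 (8 genes, lowest for Adcyap1, Cck and Vip) in Shank3-HM cortex, from -0.15 to 0.18 (7 genes) in Shank3-HT hippocampus and from -0.12 to 0.21 (7 genes) in Shank3-HM hippocampus. In striatum they ran from -0.06 to 0.17 (4 genes) for Shank3-HT and from -0.27 to 0.25 (6 genes) for Shank3-HM. Without cortex replicate 2, the Shank3-HM cortical differences of Adcyap1, Cck and Vip were -0.12, -0.04 and -0.03, against -0.23, -0.21 and -0.19 with it. The median over the tested members was between -0.07 and 0.12 in the 5 comparisons, beside medians over all genes within 0.01 of 0.

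**Figure D3:**
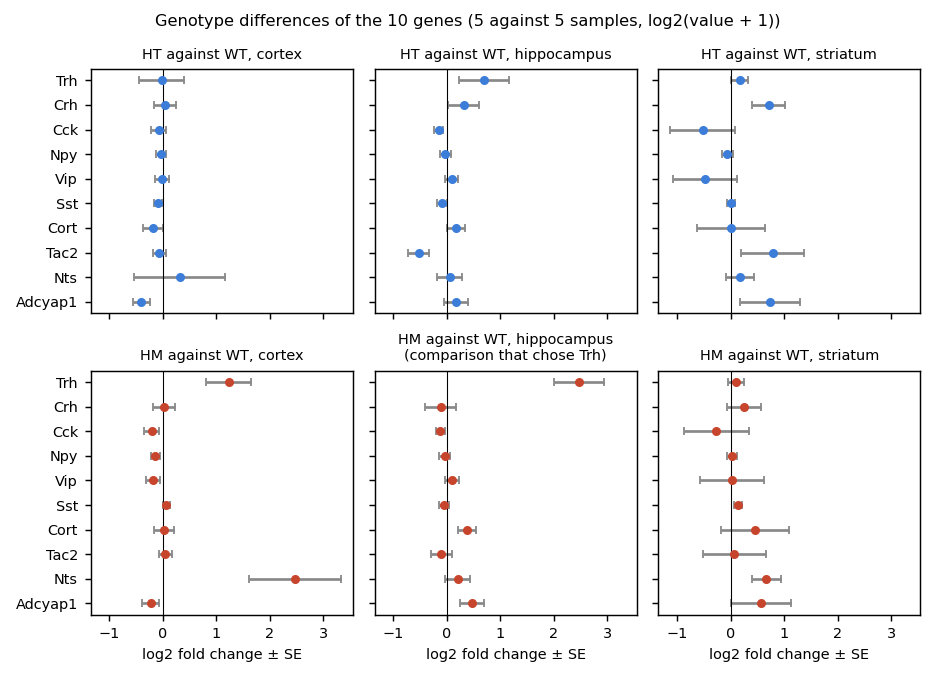
log2 fold change ± SE of the 10 genes against WT for each region and mutant genotype (5 against 5 samples, log2(value + 1)). Trh at 2.47 in Shank3-HM hippocampus was chosen by that comparison. Nts at 2.47 in Shank3-HM cortex passed the minimum mean only through Shank3-HM values. It was 1.43 without replicate 2 and with no minimum applied. Sst stays within 0.14 of 0 in all 6 panels.

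Nts, a precursor found in subicular, amygdalar and striatal neurons, was near the floor of the cortical table. WT cortices held 3.97, 1.05, 4.37, 3.50 and 1.07 normalized counts, and Shank3-HT cortices 5.71, 0.979, 6.56, 1.06 and 6.36. Shank3-HM cortices held 6.39, 350.4, 10.2, 6.81 and 10.9. Replicate 2 of Shank3-HM stood far above the rest. The mean was 76.9 in the Shank3-HM group, against 2.79 for WT and 4.13 for Shank3-HT samples. The Shank3-HM difference of 2.47 ± 0.85 (SE) is given without a test, since without replicate 2 the mean of Nts over the cortical samples was under the minimum of 10. With that sample left out and no minimum applied, a setting chosen after seeing the data, the difference was 1.43. The Shank3-HT difference was 0.32 ± 0.85.

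Replicate 2 was the cortical sample with 114684 summed counts of spiny projection neuron genes. Its Nts exceeded that of every striatal sample, which reached 228. Among the 15 striatal samples, Penk, the enkephalin precursor of spiny projection neurons, was at 30283 to 51967, and it was at 10018 in this cortical sample against a highest value of 976 in Shank3-HT and 961 in WT cortex. Six3, a transcription factor of the striatal lineage, was at 638 there and at most 7.98 in WT cortex. The part of striatal tissue in the Nts value was not tested.

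**Figure D4:**
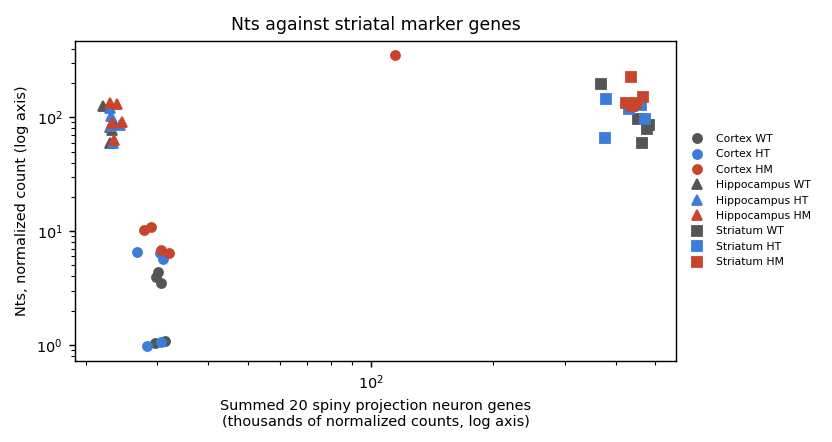
Normalized counts of Nts against the sum of 20 spiny projection neuron genes in each sample (both log axes; circles cortex, triangles hippocampus, squares striatum; colours give genotype). Shank3-HM cortex replicate 2 lies alone at 114684 summed counts and 350.4 Nts, between the other cortices and the striatal samples on the horizontal axis.

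In striatum Nts was at 78.8, 85.3, 59.9, 95.8 and 195 in WT samples and at 126, 134, 134, 149.7 and 228 in Shank3-HM samples. In all, 4 WT samples lay below all Shank3-HM samples, and WT replicate 5 lay among the highest. The difference was 0.66 ± 0.27 (SE, limma adjusted p = 0.59), and without WT replicate 5 it was 0.92 (limma adjusted p = 0.16). Left out together with the other 2 striatal samples lowest in spiny projection neuron genes, Shank3-HT replicates 3 and 5, the adjusted p was 0.061 (limma). Nts did not pass the threshold in any of these fits. The summed interneuron genes were also higher in Shank3-HM than in WT striatum, at 80723 to 85055 against 71217 to 75671. Hippocampal Nts ran from 58.8 to 133 over all 15 samples with the genotypes overlapping.

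Adcyap1 was at 565, 649.6, 481, 592 and 598 in WT cortex and at 607, 469, 339, 431 and 369 in Shank3-HT cortex. Of the 5 Shank3-HT samples, 4 lay below all WT samples, and replicate 1 was above 4 of them. The difference was -0.40 ± 0.16 (SE, limma adjusted p = 1.0). In Shank3-HM cortex its values of 361 to 685 spanned the WT range. In hippocampus Adcyap1 was at 110.3, 118, 49.7, 95.3 and 117 in WT and at 147, 154, 136, 106 and 111 in Shank3-HM samples, a log2 difference of 0.47 ± 0.23 given without a test. WT replicate 3, at 49.7, lay far below the rest, and the medians were 110.3 and 136. Its striatal values were low and spread, from 3.69 to 40.6, and the differences of 0.73 ± 0.57 in Shank3-HT and 0.57 ± 0.57 in Shank3-HM were not called (limma adjusted p = 0.82 and 0.89). The Shank3-HT difference was 0.38 without Shank3-HT replicate 5, the sample high in choroid plexus genes, and 1.09 without WT replicate 5. The Shank3-HM difference ran from 0.29 to 0.92 with 1 sample left out.

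Tac2, the neurokinin B precursor, was at 49.7, 73.3, 41.8, 49.7 and 51.4 in WT hippocampus. Shank3-HT hippocampi held 32.1, 35.0, 45.1, 39.8 and 30.2 normalized counts. Of these, 4 were below all WT samples, and replicate 3 lay inside the WT range. The difference was -0.52 ± 0.20 (SE, limma adjusted p = 0.93). The Shank3-HM hippocampi, at 36.9 to 65.4, overlapped both. In striatum Tac2 was at 68.2 in Shank3-HT replicate 2 and 245 in replicate 5, against 13.0 to 23.1 in the other 3 Shank3-HT samples and 11.6 to 50.4 in WT. The Shank3-HT difference was 0.79 ± 0.59 (limma adjusted p = 0.81). It was 0.14 without Shank3-HT replicate 5 and 1.07 without WT replicate 5 (limma adjusted p = 0.99 and 0.65). Replicate 5 was the striatal sample with 112260 summed choroid plexus counts, and the part of neighbouring tissue in its Tac2 value was not tested.

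Crh, the corticotropin-releasing hormone precursor, was at 12.3, 21.9, 15.1, 31.4 and 19.4 in WT striatum and at 23.9, 38.9, 21.6, 34.5 and 46.2 in Shank3-HT striatum. In all, 3 Shank3-HT samples exceeded all WT samples. The difference was 0.71 ± 0.32 (SE, limma adjusted p = 0.66). Without replicate 5 it was 0.58. In Shank3-HT hippocampus Crh differed by 0.31 ± 0.29 with 1 sample above all WT samples (limma adjusted p = 0.93). Its cortical genotype differences were within 0.05 of 0.

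Cort, which encodes cortistatin and is related to Sst, was at 124, 126, 86.0, 60.2 and 108 in WT and at 140.3, 107, 139, 117 and 135 in Shank3-HM hippocampus. In all, 3 Shank3-HM samples lay above all WT samples, and the log2 difference of 0.38 ± 0.17 is given without a test. WT replicate 4, at 60.2, was the lowest, and the medians were 108 and 135. Npy and Sst, which many interneurons make together, were steadier. The genotype differences of Sst ran from -0.09 to 0.13 and those of Npy from -0.14 to 0.02 over the 6 comparisons. Their deviations from genotype means went together, with Pearson r of 0.84 in hippocampus, 0.72 in striatum and 0.59 in cortex over 15 samples each, as a description of samples that share a library. In striatum the deviations of Trh correlated with those of Sst by r of 0.85, against -0.03 in cortex and -0.41 in hippocampus. This was the highest striatal value of Trh with another member, and the others ran from -0.12 (Cort) to 0.50 (Npy).

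Cck, Vip and Cort varied more between striatal samples than between genotypes. Cck was at 379, 220.0, 321, 230.3 and 1182 in WT striatum, at 372, 75.8, 815, 347 and 148 in Shank3-HT striatum and at 921, 248, 216, 121 and 475 in Shank3-HM striatum. WT replicate 5, Shank3-HT replicate 3 and Shank3-HM replicate 1 were the highest of their groups, and the genotypes overlapped. The same 3 samples had the most Vip in their groups, at 112, 71.0 and 109 normalized counts. The Shank3-HT differences were -0.52 ± 0.61 for Cck and -0.49 ± 0.60 for Vip, and the Shank3-HM difference of Cort was 0.46 ± 0.63 (limma adjusted p = 0.90, 0.90 and 0.94). Without WT replicate 5 the Shank3-HT differences were -0.11 for Cck and -0.10 for Vip. With any 1 sample left out they ran from -0.93 to -0.08 and from -0.82 to -0.10, and that of Cort from 0.15 to 0.86 over the samples whose removal left it above the minimum mean of 10, which WT replicate 5 did not.

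Slc17a7, the vesicular glutamate transporter of cortical and hippocampal excitatory neurons, moved with these genes, and was looked at after their values were seen. It was at 1884, 940.2, 2137, 1405 and 7801 in WT striatum, at 1706, 86.5, 6039, 2137 and 467 in Shank3-HT striatum and at 6032, 2217, 1501, 439 and 3129 in Shank3-HM striatum. WT cortex held 37488 to 40525. The samples highest in Slc17a7 within each genotype were those highest in Cck and Vip. Over the 15 striatal samples, which share library and dissection, the log2 levels of Slc17a7 correlated with those of Cck (Pearson r 0.95, Spearman 0.92), Vip (0.91 and 0.94) and Cort (0.79 and 0.81). Without the 2 samples farthest from the median, the Pearson values were 0.95, 0.92 and 0.69. The Pearson correlation was 0.76 for Npy, 0.38 for Sst, 0.00 for Nts, -0.09 for Trh, -0.17 for Adcyap1, -0.42 for Tac2 and -0.58 for Crh. The part of cortical tissue in the striatal values was not tested.

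**Figure D5:**
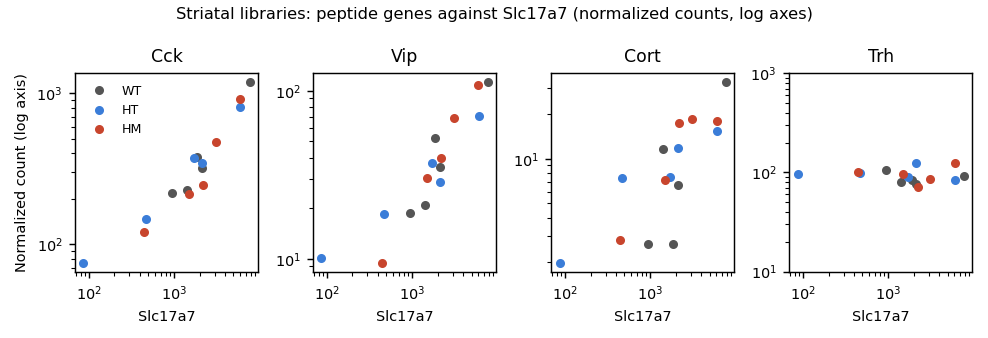
Normalized counts of Cck, Vip, Cort and Trh against Slc17a7 in the 15 striatal samples (log axes; colours give genotype). Cck, Vip and Cort climb with Slc17a7 from 86.5 to 7801, whereas Trh stays between 70.8 and 125.

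The receptors and binding proteins of these peptides were compared from a list of 27 genes, of which 23 were in the table. Vipr1, a receptor for VIP and PACAP, was the 1 gene of the list called in the genotype comparisons outside the Shank3-HM hippocampus. In Shank3-HM striatum, 1 of 23 was called beside 0.182% of all genes, and 3 of 23 had an unadjusted p under 0.05 (limma) beside 7.43%. In striatum it was at 765, 837, 670.0, 644 and 855 in WT and at 1159, 1034, 1002, 998 and 1198 in Shank3-HM samples. The groups did not overlap, and the rise was 0.52 ± 0.09 on the log2 scale (SE, limma adjusted p = 0.017). The call was lost without WT replicate 3 (adjusted p = 0.060), WT replicate 4 (0.057), Shank3-HM replicate 2 (0.0523) or Shank3-HM replicate 5 (0.057), and without the intensity trend (limma, 0.053), with differences of 0.47 to 0.53. Shank3-HT striata, at 696 to 867, overlapped the WT range.

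Trhr2, a receptor for TRH, came next in that comparison. It was at 85.6, 71.3, 61.4, 54.6 and 54.6 in WT and at 90.8, 112, 104, 112 and 90.0 in Shank3-HM striatum, again without overlap, but its difference of 0.64 ± 0.17 was not called (limma adjusted p = 0.25). The other receptor for TRH, Trhr, had a contrary regional order in WT mice. It was higher in hippocampus than in cortex by 1.94 ± 0.38 (limma adjusted p = 3.7e-05), at 171 ± 41.9 against 44.7 ± 16.3 normalized counts, whereas Trhr2 was lower by 3.49 ± 0.30 on the same scale (-3.49, adjusted p = 3.9e-13), at 2.27 ± 1.88 against 31.9 ± 2.48. In WT striatum Trhr was at 33.5 ± 25.7 and Trhr2 at 65.5 ± 13.2. Of the 3 regions in WT mice, the hippocampus thus had the highest mean of Trhr and the lowest of Trhr2. Over the list, 14 of 23 receptor genes were called between hippocampus and cortex (9 higher in hippocampus, beside 46.6% of all genes called), 19 between striatum and cortex (6 higher in striatum, beside 59.3%) and 20 between striatum and hippocampus (5 higher in striatum, beside 56.1%).

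The sum of 30 interneuron genes moved with the Shank3-HM striatal values of Vipr1, Trhr2 and Nts. It was at 71217 to 75671 in WT, 71974 to 78447 in Shank3-HT and 80723 to 85055 in Shank3-HM striatum, so that Shank3-HM and WT did not overlap. The mean was higher in Shank3-HM for 18 of the 30, beside 50.3% of all genes tested, and all Shank3-HM samples exceeded all WT samples for 3 of the 30 (Gad1, Gad2 and Lamp5), beside 1.1% of all genes. Gad1 and Gad2, which encode the enzymes that make GABA and are also expressed by spiny projection neurons, had the largest differences in mean, from 13979 to 16173 and from 13377 to 15664. None of the 30 was at 0 in any striatal sample. The part of this list in the striatal differences of Vipr1, Trhr2 and Nts was not tested.

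In the remaining genotype comparisons tested, 0 of the 21 to 23 receptor genes tested were called (limma), and at an unadjusted p under 0.05 there were 0 of 22 in Shank3-HT cortex, 1 of 22 in Shank3-HM cortex, 4 of 21 in Shank3-HT hippocampus and 2 of 23 in Shank3-HT striatum, beside 2.68%, 5.49%, 5.26% and 7.43% of all genes. The genes with the smallest p were Vipr1 at 0.13 ± 0.09 and Vipr2 at -0.48 ± 0.44 in Shank3-HT cortex, and Tacr1 at 1.12 ± 0.53 and Crhr1 at -0.21 ± 0.11 in Shank3-HM cortex. Without cortex replicate 2, the sample with striatal markers, Tacr1 was at 0.40 and Crhr1 at -0.08, and between WT striatum and cortex they differed by 5.54 and -2.29. They were Vipr1 at 0.28 ± 0.11 and Adcyap1r1 at 0.13 ± 0.05 in Shank3-HT hippocampus, and Ntsr2 at 0.18 ± 0.06 and Npy1r at 0.21 ± 0.09 in Shank3-HT striatum. Limma adjusted p-values of these 8 values ran from 0.63 to 1.0. The median log2 difference of the list stayed within 0.06 of 0 in all 5 comparisons, beside medians of all genes within 0.01 of 0.

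Of 52 other neuropeptide and granin precursors, 21 were in the table and 18 to 21 were tested. None was called in the 5 genotype comparisons (limma), with 1 of 19, 1 of 19, 0 of 21, 2 of 18 and 4 of 18 at an unadjusted p under 0.05 in Shank3-HT cortex, Shank3-HM cortex, Shank3-HT hippocampus, Shank3-HT striatum and Shank3-HM striatum, beside 2.68%, 5.49%, 5.26%, 7.43% and 7.43% of all genes. In Shank3-HM striatum the smallest p were those of Tac1, the substance P precursor of direct-pathway neurons, at 0.24 ± 0.08, and Pdyn, the prodynorphin gene of the same cells, at 0.31 ± 0.12 (limma adjusted p = 0.46 and 0.51). In Shank3-HT cortex the smallest were Grp at -0.65 ± 0.26 and Nppc at -0.28 ± 0.17, in Shank3-HT hippocampus Penk at -0.26 ± 0.16 and Npff at -0.30 ± 0.20, and in Shank3-HT striatum Nucb2 at -0.33 ± 0.12 and Apln at 0.18 ± 0.08 (limma adjusted p = 0.63 to 1.0). The median over the list was between -0.01 and 0.11 in these comparisons. In Shank3-HM cortex Apln, the apelin precursor, differed by -0.26 ± 0.06 and Scg2 by 0.25 ± 0.13 (limma adjusted p = 0.88 each), and by -0.27 and 0.09 without cortex replicate 2. Between WT striatum and cortex 13 of the 19 tested were called (5 higher in striatum, beside 59.3% of all genes called), led by Penk at 5.60 ± 0.35 and Tac1 at 4.54 ± 0.33 (limma adjusted p = 8.4e-18 and 1.8e-15).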

How the data were processed

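RNA-seq libraries were made with a stranded mRNA kit from 45 samples. Per the study's methods, the authors quantified transcripts with Salmon 1.1.0 with GC bias correction and imported them with tximport. The authors deposited DESeq2-normalized counts with decimals, a signal unit, and per the labels used build GRCm38, DESeq2 1.26.0 and R 3.6.2 (the authors' methods name later versions of both). Whole reads could not be recovered, so depth is unknown and no count model was run. Fold changes on the log2(value + 1) scale understate those of low genes. No 2 of the libraries had identical values. Columns marked KI were taken as the samples labelled knock-out.

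Values were analysed as log2(value + 1) for genes with a mean of at least 10, with limma 3.58.1 (R 4.3.3, intensity trend, two-sided), Benjamini-Hochberg adjusted over all genes tested: 16507 in cortex, 16571 in hippocampus and 16482 in striatum for genotypes (15 samples each), and 16708 for WT regions and the difference between Shank3-HM effects (1 fit of 9 groups). The fits were also run on simulated log2 values, drawn independently with a single spread per gene. That run does not cover outlying samples or unequal spreads between groups. Trh was not tested in comparisons that include WT hippocampus, though the fit of 9 groups takes its spread from those samples too. Nts was not tested between genotypes in cortex. Exon lengths came from GENCODE M21, and 18120 of 18135 IDs had a symbol. The members and lists were chosen with earlier results of these data known. The genes named were Trh in every comparison, members with an unadjusted p under 0.05 or a log2 difference of at least 0.3, the 5 genes most like Trh, and list genes that were called or had the 2 smallest p.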

Additional observations from a re-analysis of the deposited data

Results flagged for a closer look

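In 13 of 90 groups of 5 samples, 1 per gene, region and genotype, the highest or lowest value stood apart from the other 4 by more than 0.71 of the group's range; chance flags about 1 in 20 such groups. In Shank3-HM cortex replicate 2, Nts was 350.4 against 6.39 to 10.9, Cck was 3342 against 5659 to 6521, and Vip was 602 against 1002 to 1111. In WT striatum replicate 5, Cck was 1182 against 220.0 to 379, Npy was 1264 against 1100.4 to 1144, and Nts was 195 against 59.9 to 95.8. In Shank3-HT striatum, Tac2 was 245 in replicate 5 against 13.0 to 68.2, and Sst was 3839 in replicate 4 against 3174 to 3246. In Shank3-HM striatum, Npy was 1540 in replicate 1 against 1037 to 1173, Tac2 was 36.9 in replicate 3 against 18.6 to 23.5, and Nts was 228 in replicate 5 against 126 to 149.7. In hippocampus, Crh was 30.8 in WT replicate 1 against 16.99 to 21.0, and Cort was 92.4 in Shank3-HT replicate 3 against 111 to 118. No cortical, striatal or Shank3-HT hippocampal group of Trh stood out in this way. Its WT and Shank3-HM hippocampal groups, whose values chose Trh, were counted but are not read here.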

How the results depend on the processing

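No member was called in the 5 genotype comparisons tested under the 17 or 18 alternatives of each in which it was above the minimum mean; Cort without striatum WT replicate 5 was not, and Nts was not tested in cortex. With a minimum mean of 100, which leaves fewer members tested, 3 were called between WT hippocampus and cortex and 5 between WT striatum and cortex. Of all genes, 6222 and 7924 were called in these comparisons at that setting, against 7790 and 9910 in the main fit. Since fewer members and fewer genes were tested there, the lower counts are not read as lost calls. Of 1084 values of single genes under an alternative, 1056 kept direction and side of the threshold, 11 lost a call, 5 gained one and 12 reversed. Leaving out 1 sample gave -0.32 to 0.13 for Trh in Shank3-HT cortex, -0.00051 to 0.20 for Trh in Shank3-HM striatum, -0.10 to 0.010 for Sst between WT hippocampus and cortex, -0.31 to 0.013 for Crh and -0.10 to 0.32 for Nts between WT striatum and hippocampus. Quantile normalization gave 0.039 for Sst between WT hippocampus and cortex, and leaving out the 3 striatal libraries lowest in spiny projection neuron genes gave -0.10 for Nts. The cause was not tested.

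Over all genes, calls ranged from 0 to 1 for Shank3-HT cortex, 1 to 2 for Shank3-HM cortex and each hippocampal comparison, 0 to 2 for Shank3-HT striatum, 12 to 39 (main 30) for Shank3-HM striatum, lowest without Shank3-HM replicate 2, and 2 to 22 (main 9) for the difference between effects, lowest without the hippocampal samples and highest without striatum WT replicate 5.

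Whether the replicate numbers pair the samples is not given by the labels, and not every pair of same-numbered samples correlated by over 0.1. Between regions of 1 genotype, their deviations from group means correlated by -0.10 to 0.23 (median 0.067) over 45 pairs, 16 of them over 0.1 and 26 highest with their own number, where 1 in 5 would be 9. This is a hint of pairing from the data, not from the design. Between genotypes of 1 region the range was -0.12 to 0.15 over 30 pairs, 9 of them highest with their own number. With the number as a replicate block, 0 members were called in each genotype comparison and for the difference between effects. Between WT regions 6, 10 and 6 were called, as without it, beside 8304, 10296 and 9835 of all genes (7790, 9910 and 9373 without it). All genes called moved to 39 in Shank3-HM striatum and to 20 for the difference between effects. Depth is unknown, so single counts of Nts and Trh near the floor carry no counting error here.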
